A study of Mus musculus with 30 samples.

Results

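Collagens are the triple-helical proteins of the extracellular matrix, and their chains were measured in cultures of 3T3-L1, mouse preadipocytes that can be differentiated to adipocytes. The members were chosen by gene symbol alone, as every gene named Col, a number, a and a number. They were 44 genes with 217 transcripts, out of 57490 gene rows in the deposited table. By structure they comprise 11 fibrillar, 6 basement membrane, 9 FACIT (fibril-associated with interrupted helices) and 6 beaded filament chains, with 4 transmembrane, 3 short chain, 2 multiplexin, 1 anchoring fibril and 2 further chains. Transcript FPKM (fragments corrected for transcript length and for library size) were summed for each gene, so levels can be compared between chains. There were 6 groups of 5 cultures. Quizalofop-p-ethyl (QpE), a herbicide, was given at 50 µM in the groups labelled 6 h, 24 h and 12 days, and each time had a control group without it. All groups shared the line, used at low passage, and a medium with fetal bovine serum, insulin at 100 nM and the phosphodiesterase inhibitor 3-isobutyl-1-methylxanthine at 500 µM, begun 2 days before QpE. The protocol describes medium changes every 2 days over 6 further days, which is shorter than the 12 day label; the label is used here as given.

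Fibrillar collagens are secreted as procollagens, trimmed at both ends and packed side by side into the fibrils that give connective tissue its tensile strength, while FACIT chains sit on the fibril surface. Type IV chains instead form the sheet of the basement membrane, and type VI chains form beaded filaments between that sheet and the fibrils. Preadipocytes make a fibrillar matrix, and maturing fat cells are known to replace part of it with a type IV basement membrane and type VI filaments around it.

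Libraries totalled 413502 to 500489 FPKM, and the depth estimated from the steps between low values was 9.50 to 17.6 (in units of 1e+06 fragments). At 12 days the libraries labelled replicates 3 and 4 lay apart from replicates 1, 2 and 5 in both groups. On the first principal component QpE replicate 5 lay farthest out, at 70.0, and the other 9 libraries lay between -44.7 and 27.2. Adipocyte markers (12 genes) summed to 5347 to 10975 FPKM in QpE cultures at 12 days, against 2076 to 8170 FPKM in control cultures. Preadipocyte and fibroblast markers (10 genes) summed to 555 to 1748 FPKM in QpE cultures, against 2433 to 3141 FPKM in control cultures. Endothelial markers (5 genes) reached at most 0.633 FPKM in QpE and 0.578 FPKM in control cultures at 12 days, and macrophage markers (5 of 6 genes in the table) 5.37 FPKM in QpE and 3.71 FPKM in control cultures.

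Of the 44 chains, 23 reached 1 FPKM in at least 5 of the 30 libraries and were tested. The other 21 included 2 fibrillar (Col2a1, Col24a1), 3 basement membrane (Col4a3, Col4a4, Col4a6), 6 FACIT (Col9a1, Col9a2, Col9a3, Col14a1, Col19a1, Col22a1) and 3 beaded chains (Col6a4, Col6a5, Col6a6). The remaining 7 were Col7a1, Col8a2, Col10a1, Col13a1, Col17a1, Col25a1 and Col26a1. Among these 21 the highest group mean was 0.360 FPKM, for Col7a1, the anchoring fibril chain of skin, and Col9a1, a cartilage chain, was listed at 0 in every library. Col8a1, Col11a2 and Col20a1 passed narrowly, with group means between 0.322 and 1.12 FPKM.

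At 12 days, 10 of the 23 tested chains fell with QpE and 1 rose, by limma on log2(FPKM + 1) with Benjamini-Hochberg adjustment over 14626 genes and a threshold of 0.05. Across all genes tested, 7.17% (1049 genes) were called lower and 5.06% (740 genes) higher; with values scaled to TPM the same fit called 1375 genes lower and 459 higher, and again 10 chains lower and 1 higher. The falls were in 6 of 9 tested fibrillar chains (Col1a1, Col3a1, Col5a1, Col5a2, Col11a1 and Col27a1), in 2 of 3 FACIT chains (Col12a1 and Col16a1), in the transmembrane chain Col23a1 and in Col28a1. None of the 3 tested basement membrane chains or the 3 tested beaded chains was called. The single rise was in Col5a3. The median log2 difference was -1.43 over the fibrillar chains, -1.44 over the FACIT chains, -0.23 over the basement membrane chains and -0.10 over the beaded chains, beside -0.002 over all genes tested. Leaving out any 1 of control replicates 1 to 5 left 5 chains called lower, and leaving out QpE replicate 3 left 6. Over all genes, 473 to 651 were called lower without 1 control replicate, and 702 without QpE replicate 3, beside 1049. Col1a1, Col5a1, Col5a2, Col11a1 and Col28a1 were called in all 10 fits that left out 1 library. With replicates 1, 2 and 5 alone 0 chains were called, where 50 of all 14626 genes were called lower and 102 higher. With replicates 3 and 4 alone 10 chains were called lower, where 604 of all genes were called lower and 617 higher. These 10 included the basement membrane chain Col4a2 and Col18a1, but not Col27a1 and Col28a1. Named transcripts alone gave 4 (Col1a1, Col5a2, Col11a1 and Col12a1), where 493 of 18043 genes were called lower.

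**Figure D1:**
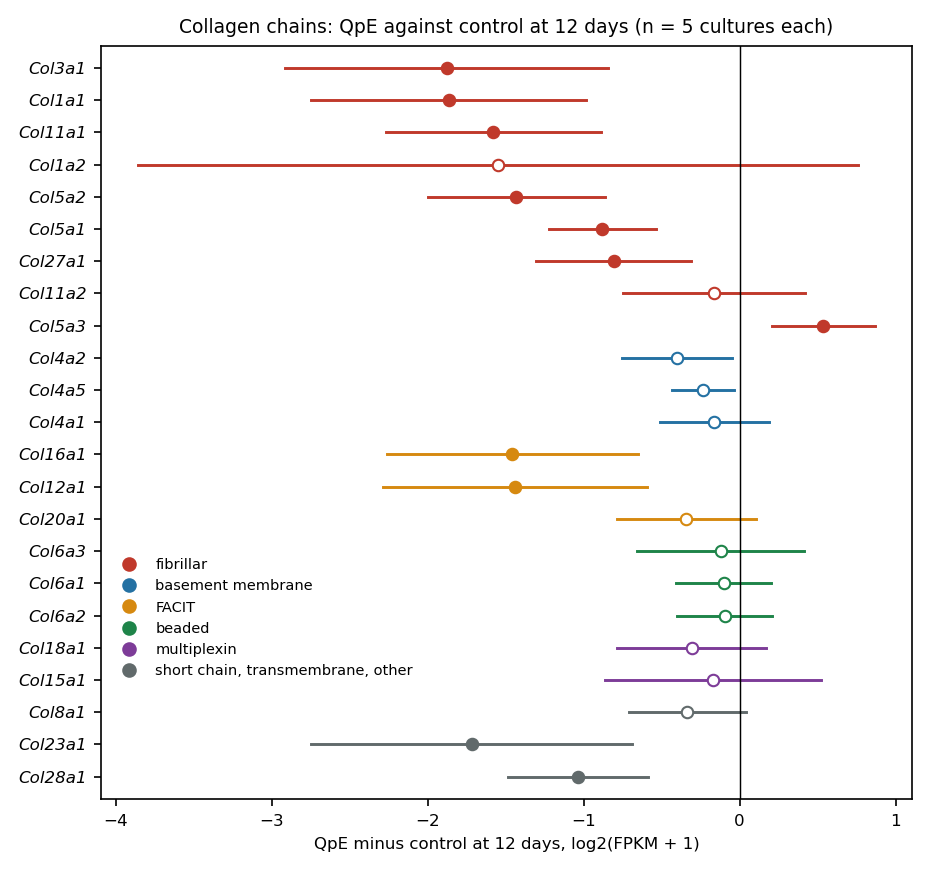
Log2 difference between QpE and control cultures at 12 days for each of the 23 tested chains, in log2(FPKM + 1), with its 95% interval from limma (n = 5 cultures each). Filled points passed the adjusted threshold; fibrillar and FACIT points lie between -1.88 and 0.54 with 8 called lower, and all basement membrane and beaded points are open.

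Col3a1, the single chain of type III collagen, was the most abundant chain by the planned summing. Col3a1 had 1138, 1129, 835, 1048 and 179 FPKM in QpE cultures, against 2541, 2440.5, 2918, 2969.9 and 2526 FPKM in control cultures, for replicates 1 to 5 in that order here and below. All 5 QpE values lay below all control values, and QpE replicate 5 was far below the other 4. The resulting log2 difference was -1.88 ± 0.47 (SE; limma adjusted p = 0.0299).

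Col1a1, the chain present in 2 copies in each type I molecule, showed the same order. Col1a1 had 424, 462, 301, 378 and 87.1 FPKM in QpE cultures, against 936, 1054, 1087, 1099.9 and 1076 FPKM in control cultures. The groups did not overlap, and control cultures varied little. Its log2 difference was -1.87 ± 0.40 (SE; limma adjusted p = 0.0185). Without QpE replicate 5, mean Col1a1 in QpE cultures was 37.2% of the control mean, against 31.5% with it.

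Col1a2, the second chain of type I collagen, could not be read from its named transcripts alone. Its locus also holds the gene Gm43921, so 2 unnamed transcripts there were not joined to it, and the summed values jumped between libraries. Col1a2 had 33.2, 156, 92, 1232 and 29 FPKM in QpE cultures, against 103, 1165, 731, 352 and 126 FPKM in control cultures. The groups overlapped and the log2 difference was -1.55 ± 1.04 (SE; limma adjusted p = 0.372). With unnamed transcripts placed in the gene whose span covers at least 90% of them, a choice made after seeing the data, Col1a2 had 953, 984, 762, 1305 and 211 FPKM in QpE cultures, against 2232, 2397, 2456, 2438 and 2378 FPKM in control cultures. On that reading the groups did not overlap, and Col1a2 fell, with a log2 difference of -1.72 ± 0.42 (SE; limma adjusted p = 0.026). That fit called 11 of the 23 chains lower and 1 higher, beside 7.72% and 5.4% of all genes tested.

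The type V chains, which start fibrils and limit their width, differed in direction. Col5a1 had 98.7, 105, 72, 79.2 and 57.7 FPKM in QpE cultures, against 140.4, 137, 157, 162 and 152 FPKM in control cultures. Col5a2 had 147, 149.5, 127, 153 and 56.6 FPKM in QpE cultures, against 295, 286, 355, 385 and 308 FPKM in control cultures. Neither chain's groups overlapped. The log2 difference was -0.88 ± 0.15 (SE; limma adjusted p = 0.013) for Col5a1 and -1.43 ± 0.26 (SE; limma adjusted p = 0.0132) for Col5a2. Col5a3, a type V chain of more limited tissue range, is given by library because it was the only chain called higher, and it was singled out after its values were seen. Col5a3 had 28.3, 35.8, 48.1, 40.4 and 44 FPKM in QpE cultures, against 23.8, 22, 29.6, 31.1 and 26.4 FPKM in control cultures. QpE was higher in all 5 pairs of replicate numbers, though QpE replicate 1 lay below 2 control cultures. The log2 difference was 0.54 ± 0.15 (SE; limma adjusted p = 0.0432), and the call was lost in 9 of the 10 fits that left out 1 library (each one but that without QpE replicate 1).

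Col11a1, a type XI chain best known from cartilage fibrils, was much less abundant. Col11a1 had 6.74, 6.37, 2.33, 2.97 and 1.47 FPKM in QpE cultures, against 16.2, 14.7, 10.9, 10.6 and 10.9 FPKM in control cultures. The groups did not overlap, and replicates 1 and 2 were the highest within each group. The log2 difference was -1.58 ± 0.31 (SE; limma adjusted p = 0.0155). Col27a1, a fibrillar chain with short breaks in its helix, had 2.35, 2.99, 1.13, 1.82 and 0.961 FPKM in QpE cultures, against 4.99, 4.31, 2.82, 2.83 and 4.53 FPKM in control cultures. The highest QpE culture lay above the lowest 2 control cultures, and the log2 difference was -0.81 ± 0.22 (SE; limma adjusted p = 0.0423). Of its mean of 5.55 FPKM over the 30 libraries, 4.08 FPKM came from unnamed transcripts, and with named ones alone the difference was -0.29 ± 0.29 (SE; limma adjusted p = 0.618). Col11a2, a further type XI chain, averaged 0.832 ± 0.54 FPKM in QpE cultures and 1.07 ± 0.654 FPKM in control cultures (SD, n = 5 each) and was not called.

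The bases before the RefSeq starts of 4 fibrillar genes are shown because these genes differed in their response, Col1a2 (by the joined reading), Col3a1 and Col5a1 being lower and Col5a3 higher with QpE. Each is the 250 bases before the start, 5′ to 3′ on the gene's strand, from RefSeq on GRCm38.p6. Capitals mark 3 motifs, searched on both strands. The CCAAT box is the first of them. The second is the TATAAA box. The third is the GC box, with the letters GGGCGG, or CCGCCC where it lies on the other strand. No matches overlap in the windows shown.
Col1a2, chr6:4505368-4505617, plus strand: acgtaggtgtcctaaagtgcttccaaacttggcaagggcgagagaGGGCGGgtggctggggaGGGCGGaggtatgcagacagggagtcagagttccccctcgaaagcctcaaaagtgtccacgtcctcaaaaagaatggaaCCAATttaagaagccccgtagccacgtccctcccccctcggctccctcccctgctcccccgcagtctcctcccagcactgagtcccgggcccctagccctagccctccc
Col3a1, chr1:45311288-45311537, plus strand: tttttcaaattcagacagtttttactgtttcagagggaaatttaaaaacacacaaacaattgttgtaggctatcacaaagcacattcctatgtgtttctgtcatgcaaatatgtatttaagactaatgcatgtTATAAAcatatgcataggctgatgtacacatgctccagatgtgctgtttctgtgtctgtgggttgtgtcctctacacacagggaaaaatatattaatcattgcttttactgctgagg
Col5a1, chr2:27886175-27886424, plus strand: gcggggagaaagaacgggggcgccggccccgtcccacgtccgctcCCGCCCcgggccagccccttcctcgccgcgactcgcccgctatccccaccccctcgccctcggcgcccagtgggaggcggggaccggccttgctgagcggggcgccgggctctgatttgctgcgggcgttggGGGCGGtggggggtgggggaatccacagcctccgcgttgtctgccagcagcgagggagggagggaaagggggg
Col5a3, chr9:20815068-20815317, minus strand: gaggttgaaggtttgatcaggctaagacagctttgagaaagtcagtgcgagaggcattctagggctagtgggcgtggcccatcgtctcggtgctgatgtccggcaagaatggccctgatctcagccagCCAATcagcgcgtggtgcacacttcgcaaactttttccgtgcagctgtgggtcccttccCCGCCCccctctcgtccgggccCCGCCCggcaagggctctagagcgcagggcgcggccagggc
Col1a2 and Col5a3 hold CCAAT, 109 and 122 bases before the start, and Col3a1 holds TATAAA 117 bases before it. GGGCGG occurs in Col1a2, Col5a1 and Col5a3, with 2 copies each. RefSeq windows were at hand for 38 starts of 35 of the 44 collagen genes. GGGCGG was in 22 of these 38 windows (57.9%), beside 32.7% of 32851 windows of all genes. CCAAT was in 13 (34.2%, beside 33.8%) and TATAAA in 5 (13.2%, beside 12.4%). Of the 7 windows of chains called lower, 5 held GGGCGG, as did 8 of the 14 of tested chains that were not called, among which Col1a2 is counted by its planned sums.

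Both abundant FACIT chains fell. Col16a1, which encodes type XVI collagen of the fibril surface and of cell contacts, was the most abundant FACIT chain. Col16a1 had 26.3, 29.2, 18.8, 16.7 and 5.2 FPKM in QpE cultures, against 49.4, 44.8, 47.6, 53.1 and 45.2 FPKM in control cultures. The groups did not overlap, and the log2 difference was -1.46 ± 0.36 (SE; limma adjusted p = 0.0299). Col12a1, whose type XII collagen binds type I fibrils, had 10.9, 10.2, 14.7, 18.7 and 3.56 FPKM in QpE cultures, against 23.1, 23, 42.6, 46.9 and 21.8 FPKM in control cultures. Within both groups replicates 3 and 4 were the highest, the groups did not overlap, and the log2 difference was -1.44 ± 0.38 (SE; limma adjusted p = 0.0369). Col20a1, the third FACIT chain tested, lay near the filter of 1 FPKM. Col20a1 had 0.57, 0.762, 0.184, 0.23 and 0.565 FPKM in QpE cultures, against 1.05, 1.29, 0.415, 0.326 and 1.35 FPKM in control cultures. It was not called, with a log2 difference of -0.34 ± 0.20 (SE; limma adjusted p = 0.301). Its locus also holds Arfgap1, and 2 unnamed transcripts there were joined to neither gene.

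The basement membrane chains differed less. Col4a1 and Col4a2 form the type IV network of most basement membranes. Col4a1 had 608, 655, 578, 582 and 442 FPKM in QpE cultures, against 589, 519, 751, 768 and 589.8 FPKM in control cultures. Col4a2 had 342, 371, 296, 299 and 236 FPKM in QpE cultures, against 369, 339, 483, 489 and 363 FPKM in control cultures. For both chains the groups overlapped, and control replicates 3 and 4 were the highest of all. The log2 difference was -0.16 ± 0.16 (SE; limma adjusted p = 0.547) for Col4a1, with a 95% interval of -0.51 to 0.19, and -0.40 ± 0.16 (SE; limma adjusted p = 0.125) for Col4a2. Col4a5, a chain of a second type IV network known from kidney and other specialised basement membranes, had 10.3, 9.15, 9.07, 7.88 and 9.64 FPKM in QpE cultures, against 11.3, 10.4, 11.8, 10.1 and 11.3 FPKM in control cultures. The groups overlapped, and the log2 difference was -0.23 ± 0.09 (SE; limma adjusted p = 0.118). A fit of all 30 libraries called Col4a2 and Col4a5 lower (limma adjusted p = 0.0162 and 0.0333), where 14.2% of all genes tested were called lower and 11.9% higher.

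The beaded chains of type VI collagen, which surround fat cells, were nearly level between the groups. Col6a1 had 517, 561, 669, 621 and 432 FPKM in QpE cultures, against 556, 557, 612, 653 and 601 FPKM in control cultures. Col6a2 had 345, 372, 415, 329 and 271 FPKM in QpE cultures, against 357, 357, 330.0, 349 and 452 FPKM in control cultures. Col6a3 had 302, 366, 365, 410.2 and 181 FPKM in QpE cultures, against 283, 314, 463, 417 and 267 FPKM in control cultures. In all 3 chains QpE replicate 5 was the lowest QpE culture and the groups overlapped. The log2 differences were -0.10 ± 0.14 (SE; limma adjusted p = 0.673) for Col6a1, -0.10 ± 0.14 (SE; limma adjusted p = 0.696) for Col6a2 and -0.12 ± 0.24 (SE; limma adjusted p = 0.781) for Col6a3. Their 95% intervals ran from -0.41 to 0.20, -0.40 to 0.21 and -0.66 to 0.41. Of the 369.3 FPKM that Col6a3 averaged over the 30 libraries, 329.8 FPKM came from unnamed transcripts of its locus, joined to it because no other named gene lies there.

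**Figure D2:**
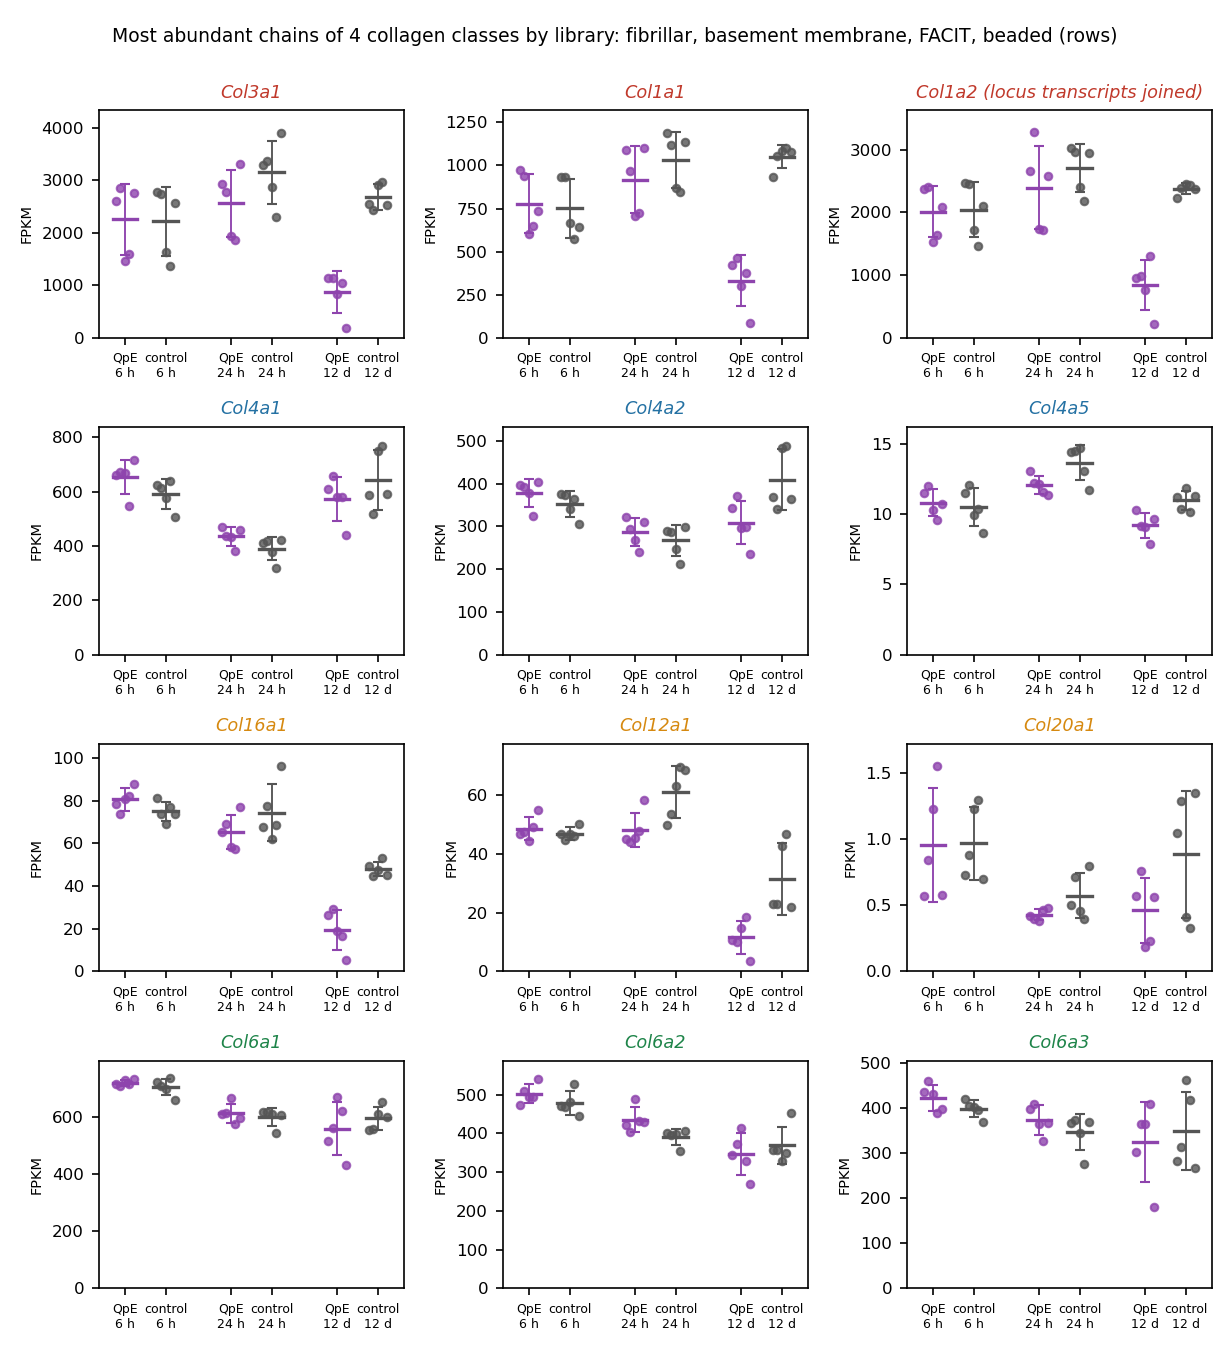
FPKM of the 3 most abundant tested chains of each of the 4 classes in every library, with QpE (purple) left of control (grey) at 6 h, 24 h and 12 days. Points are cultures, lines are means and bars are SD (n = 5); for Col1a2 the unnamed transcripts of its locus are joined. At 12 days Col3a1, Col1a1, Col1a2, Col16a1 and Col12a1 lie below control in every QpE culture, and the type IV and VI chains overlap.

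Among the remaining chains, Col23a1, a transmembrane collagen, fell. Col23a1 had 14.4, 15.2, 13, 15.5 and 1.55 FPKM in QpE cultures, against 33.1, 32.3, 33, 36.7 and 38.1 FPKM in control cultures. QpE replicate 5 was near 0 and the other 4 QpE cultures were close together below all controls. Its log2 difference was -1.72 ± 0.46 (SE; limma adjusted p = 0.0393). Col28a1, a chain with domains like those of type VI, had 0.873, 1.0, 0.632, 0.326 and 0.0982 FPKM in QpE cultures, against 1.93, 3.51, 1.6, 2.07 and 2.1 FPKM in control cultures. The groups did not overlap, and the log2 difference was -1.04 ± 0.20 (SE; limma adjusted p = 0.0155). Unnamed transcripts of its locus made up 5.76 of the 6.45 FPKM that Col28a1 averaged over the 30 libraries; with named transcripts alone the log2 difference was -0.43 ± 0.19 (SE; limma adjusted p = 0.243), and with its most abundant transcript 0.0017.

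The multiplexins, which lie between basement membrane and fibrils, were not called. Col15a1 had 82.3, 79.6, 35.7, 34.1 and 45.8 FPKM in QpE cultures, against 78.9, 75.8, 43.3, 36.6 and 70.7 FPKM in control cultures. In both groups replicates 1 and 2 were the highest, replicates 3 and 4 the lowest. Its log2 difference was -0.17 ± 0.31 (SE; limma adjusted p = 0.765). Col18a1, which carries the endostatin fragment, averaged 39 ± 9.0 FPKM in QpE cultures and 48.6 ± 13 FPKM in control cultures (SD, n = 5 each), with a log2 difference of -0.31 ± 0.22 (SE; limma adjusted p = 0.393). Col8a1, a short chain collagen of vessel walls, had 1.27, 0.576, 0.563, 0.926 and 0.209 FPKM in QpE cultures, against 1.31, 1.3, 0.791, 1.09 and 1.08 FPKM in control cultures. Its groups overlapped and its log2 difference was -0.34 ± 0.17 (SE; limma adjusted p = 0.233).

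In all, 9 of the 23 tested chains had every QpE culture below every control culture at 12 days, beside 8.26% of all genes tested. QpE replicate 5 was the lowest QpE culture in 18 of the 23 tested chains and in all 10 of those called lower. That culture also lay farthest out on the first principal component of all genes tested. The share of all genes for which it was lowest is not given here, so these counts cannot be read as particular to the chains. All 10 were lower in QpE for each of the 5 replicate numbers, which follows from the lack of overlap for 9 of them. These 10 were picked by their calls in the same libraries, and the share of all genes with this pattern is not given here. A fit with the replicate number as a block called the same count, 10 lower and 1 higher, beside 10.3% and 8.77% of all genes. At an unadjusted p under 0.05 there were 13 of the 23 chains, beside 27.8% of all genes. In bulk cultures, fewer cells of a type and less RNA per cell cannot be told apart. Preadipocyte and fibroblast marker sums, given above, were also lower in every QpE culture than in every control culture at 12 days. Adipocyte marker sums overlapped between the groups, but were higher in QpE for each of the 5 replicate numbers. They were 10975, 10601, 5347, 5836 and 10735 FPKM in QpE cultures, against 8140, 7459, 2977, 2076 and 8170 FPKM in control cultures. The part of these cell types in the collagen results was not tested.

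Summed within classes, with the Col1a2 locus joined, fibrillar chains came to 2294 ± 984 FPKM in QpE cultures at 12 days and 6629 ± 406 FPKM in control cultures (SD, n = 5 each). FACIT chains summed to 31.4 ± 12.6 FPKM in QpE cultures and 80.8 ± 14.2 FPKM in control cultures. Basement membrane chains summed to 891 ± 129.8 FPKM in QpE cultures and 1063 ± 181 FPKM in control cultures, and beaded chains to 1231 ± 220.2 FPKM in QpE cultures and 1314 ± 101 FPKM in control cultures. Fibrillar and FACIT sums did not overlap between the groups, while the other 2 classes did.

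Class shares of the collagen transcripts restate these sums. The shares of all classes add up to the whole, so a lower fibrillar sum by itself raises the shares of classes that fell less. Fibrillar chains were 27.9% to 55.8% (mean 47.7%) of collagen FPKM in the 5 QpE cultures, against 70.8% to 73.3% (mean 71.8%) in control cultures. Beaded chains were 22.8% to 38.6% (mean 28.4%) in QpE cultures, against 13.9% to 14.7% (mean 14.2%) in control cultures. Basement membrane chains were 20.7% ± 5.3 in QpE cultures and 11.4% ± 1.15 in control cultures (SD, n = 5 each). QpE replicate 5 was the extreme of its group in each of these 3 classes, and none of the 3 overlapped between the groups. Without the joining, the fibrillar mean was 40.9% in QpE and 64.5% in control cultures. All collagens together took 0.977% ± 0.293 of the FPKM of a library in QpE cultures and 2.1% ± 0.12 in control cultures, with the joining.

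**Figure D3:**
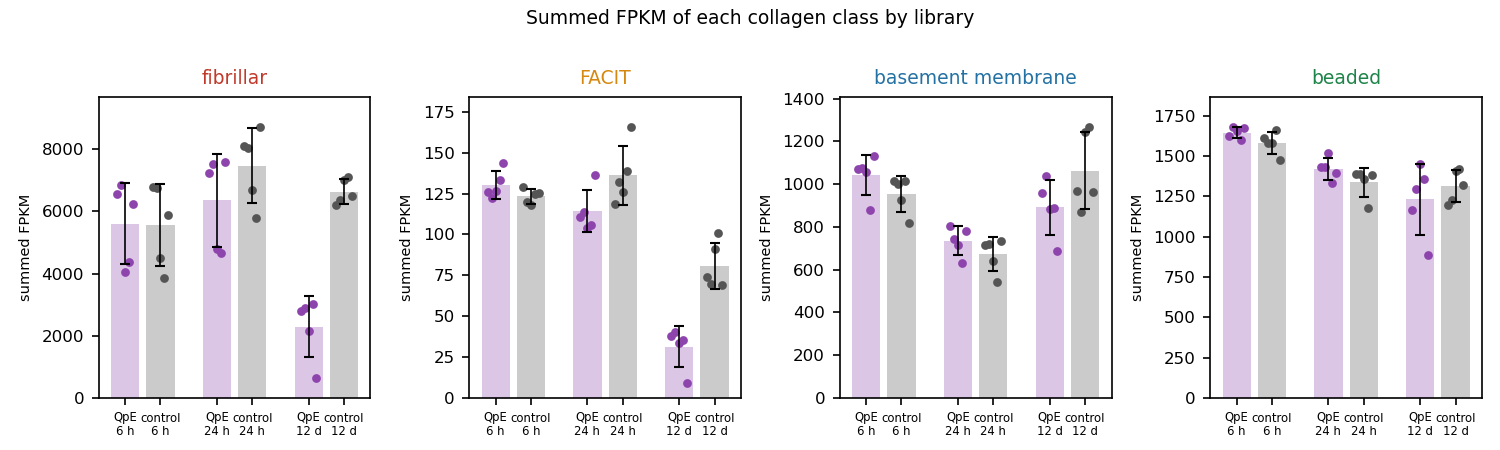
Summed FPKM of the fibrillar, FACIT, basement membrane and beaded chains in every library, with QpE (purple) left of control (grey) at each time. Bars are means with SD (n = 5) and points are cultures; the Col1a2 locus is joined. Fibrillar and FACIT sums are lower in every QpE culture than in every control culture at 12 days, and the 2 right panels overlap.

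Chains that share a molecule did not all keep their proportions. The Col4a1 to Col4a2 ratio of FPKM was 1.78, 1.77, 1.95, 1.94 and 1.87 in QpE cultures at 12 days, against 1.6, 1.53, 1.56, 1.57 and 1.62 in control cultures. The QpE ratios all lay above the control ratios. The Col5a1 to Col5a2 ratio was 0.672, 0.704, 0.567, 0.517 and 1.02 in QpE cultures, against 0.476, 0.48, 0.443, 0.421 and 0.494 in control cultures, again without overlap and highest in QpE replicate 5. With named transcripts alone the groups did not overlap either, but QpE replicate 5 was at 0.583 and QpE replicate 2 was highest, at 0.665. The QpE mean was then 0.553, against 0.696 with the planned sums. The ratio of Col5a3 to Col5a1, computed after both chains' values were seen, was 0.287, 0.34, 0.668, 0.51 and 0.762 in QpE cultures, against 0.169, 0.16, 0.189, 0.192 and 0.174 in control cultures.

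Other ratios overlapped between the groups. Col6a1 to Col6a2 averaged 1.62 ± 0.156 in QpE cultures and 1.64 ± 0.228 in control cultures (SD, n = 5 each). Col6a3 to Col6a1 averaged 0.573 ± 0.0978 in QpE cultures and 0.583 ± 0.121 in control cultures. Col1a1 to Col1a2, with the Col1a2 locus joined, averaged 0.402 ± 0.0691 in QpE cultures and 0.441 ± 0.0133 in control cultures. No test was run on the ratios.

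**Figure D4:**
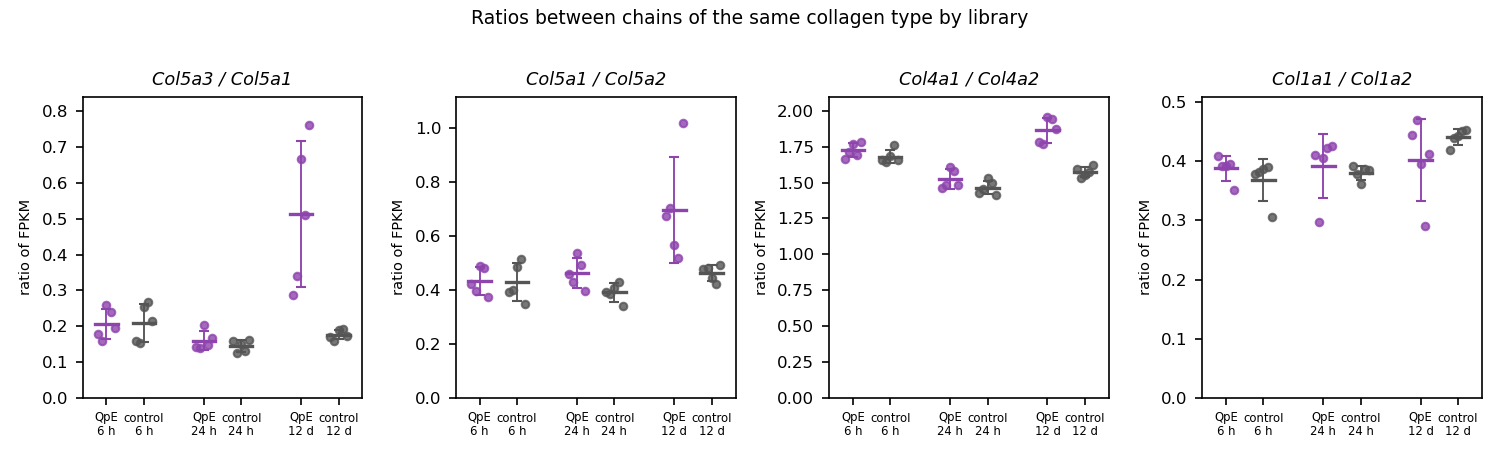
Ratio of FPKM between chains of types V, IV and I in every library, with QpE (purple) left of control (grey) at each time; lines are means and bars SD (n = 5 cultures). At 12 days the first 3 ratios are higher in every QpE culture than in every control culture, and Col1a1 to Col1a2 (locus joined) overlaps.

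At 6 h 0 of the 23 tested chains was called by limma, with 0 at an unadjusted p under 0.05; across all genes 0.00684% were called higher and 0% lower, and 2.75% had an unadjusted p under 0.05. Apart from Col1a2 without its locus transcripts, every log2 difference lay between -0.07 and 0.15. Col3a1 had 2608, 2859.5, 1458, 1594 and 2757 FPKM in QpE cultures at 6 h, against 2776, 2736, 1642, 1375 and 2567 FPKM in control cultures. Replicates 3 and 4 were the lowest in both groups, and the groups overlapped. For Col1a1 the 95% interval of the log2 difference was -0.36 to 0.47.

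At 24 h 0 chains were called either, with 4 of 23 at an unadjusted p under 0.05 (8.79% of all genes; 0% of genes were called in each direction). These 4 were Col28a1, Col11a1, Col12a1 and Col4a5, all with lower values in QpE. With named transcripts alone, 3 of them turned, to 0.09 for Col28a1, 0.05 for Col11a1 and 0.46 for Col4a5 on the log2 scale, and Col12a1 was at -0.33. Col28a1 had 5.76, 4.37, 4.99, 4.62 and 5.56 FPKM in QpE cultures at 24 h, against 7.51, 8.52, 8.98, 6.55 and 9.36 FPKM in control cultures. The groups did not overlap, but the log2 difference of -0.60 ± 0.11 (SE; limma adjusted p = 0.203) missed the adjusted threshold. Col11a1 had 5.78, 6.07, 3.9, 3.62 and 4.24 FPKM in QpE cultures at 24 h, against 8.16, 9.62, 7.07, 5.78 and 6.67 FPKM in control cultures. Its groups overlapped, and its log2 difference was -0.57 ± 0.16 (SE; limma adjusted p = 0.395). Of the 9 fibrillar chains 8 had a log2 difference below 0, with a median of -0.19, and all 3 beaded chains lay above 0, with a median of 0.11. Over all genes tested, 6804 of 14626 lay below 0, with a median of 0.011.

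The log2 difference at 12 days was set against that at 24 h with an interaction term, and 11 of the 23 tested chains had an unadjusted p under 0.05 (17.3% of all genes), 10 of them lower and Col5a3 higher. None passed the adjusted threshold in the fit of these 4 groups, where 0.677% of all genes tested were called lower and 0.28% higher. The nearest were Col5a1, with a difference of effects of -0.76 ± 0.20 (SE; limma adjusted p = 0.0609), and Col1a1, with -1.69 ± 0.45 (SE; limma adjusted p = 0.0623). With the replicate number as a block Col11a1 was called lower (-1.01 ± 0.23, SE; limma adjusted p = 0.0454), and weights per group called 4 chains lower. A fit of all 30 libraries called Col1a1, Col5a1, Col5a2, Col16a1 and Col23a1 lower (limma adjusted p between 0.016 and 0.0448). Counts over all genes for this term in these fits are not given here, so the calls cannot be read as particular to the chains. For QpE against control at 12 days, the main fit called 1049 of all genes lower. The block gave 1500, the weights 1122 and the fit of all 30 libraries 2081.

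**Figure D5:**
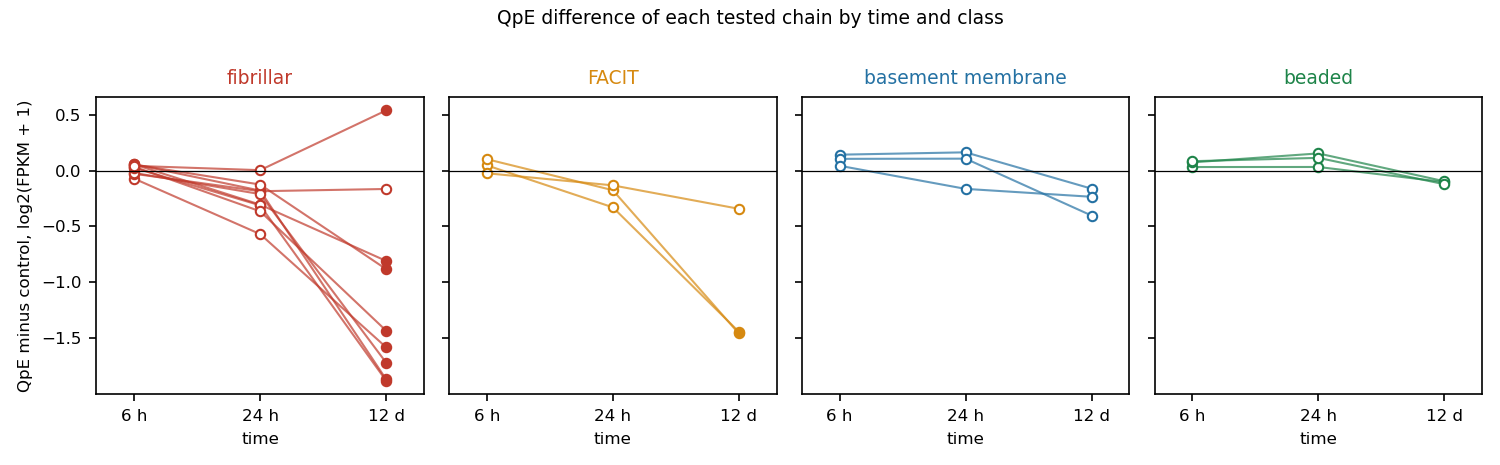
Log2 difference between QpE and control cultures in log2(FPKM + 1) for each tested chain of the 4 classes at 6 h, 24 h and 12 days; lines join a chain's values and filled points passed the limma threshold. No point is filled at 6 h or 24 h; at 12 days the called fibrillar and FACIT chains lie between -1.88 and -0.81 and Col5a3 at 0.54 (Col1a2 with its locus joined).

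The control cultures give the course of the chains without QpE. At 24 h, against 6 h, 3 of the 23 tested chains rose and 6 fell (10.5% of all genes were called higher and 12% lower). Col11a1 rose to 7.46 ± 1.48 FPKM at 24 h, against 2.94 ± 1.18 FPKM at 6 h (SD, n = 5 each), a log2 difference of 1.14 ± 0.21 (SE; limma adjusted p = 0.00402). Col12a1 (0.36) and Col4a5 (0.36) also rose on that scale. Col4a1 had 412, 419, 379, 318 and 423 FPKM in the 24 h controls, against 625, 614, 575, 639 and 504 FPKM in the 6 h controls. No 24 h value reached a 6 h value, and the log2 difference was -0.60 ± 0.10 (SE; limma adjusted p = 0.00207). Col18a1, Col28a1, Col4a2, Col6a2 and Col6a1 fell as well, by log2 differences of -0.46 to -0.24. With named transcripts alone Col11a1, Col4a5 and Col28a1 were not called, and Col4a5 turned to -0.95.

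At 12 days, against 24 h, 5 of the 23 tested chains rose in control cultures and 6 fell (13.1% of all genes were called higher and 20.9% lower, with a median log2 difference of -0.08). The type IV pair rose, with 643 ± 109.9 FPKM of Col4a1 at 12 days, against 390.2 ± 43.8 FPKM at 24 h, and log2 differences of 0.71 ± 0.13 (SE; limma adjusted p = 0.00213) for Col4a1 and 0.61 ± 0.14 (SE; limma adjusted p = 0.00652) for Col4a2. Col15a1 rose by 0.89 ± 0.27 (SE; limma adjusted p = 0.0257), Col11a1 by 0.69 and Col8a1 by 0.67 on the log2 scale. Col28a1 had 1.93, 3.51, 1.6, 2.07 and 2.1 FPKM in the 12 day controls, against 7.51, 8.52, 8.98, 6.55 and 9.36 FPKM in the 24 h controls. No 12 day value reached a 24 h value, and the log2 difference was -1.52 ± 0.15 (SE; limma adjusted p = 6.58e-05), but with named transcripts alone it was 0.25 ± 0.21 (SE; limma adjusted p = 0.458). Col23a1 was lower as well, with 33.1, 32.3, 33, 36.7 and 38.1 FPKM in the 12 day controls, against 66.3, 66.7, 64.8, 57.1 and 77.4 FPKM in the 24 h controls, and a log2 difference of -0.92 ± 0.08 (SE; limma adjusted p = 3.81e-05). Col12a1 (-1.0), Col27a1 (-0.63), Col16a1 (-0.60) and Col4a5 (-0.29) also fell. With named transcripts alone Col11a1, Col16a1, Col27a1 and Col4a5 were not called, and Col4a5 turned to 0.54. Col1a1, Col3a1, Col5a1, Col5a2 and the type VI chains were not called, and the 95% interval of the log2 difference of Col1a1 was -0.23 to 0.30. Adipocyte markers summed to 2076 to 8170 FPKM in the 12 day controls, against 381 to 952 FPKM in the 24 h controls, and preadipocyte and fibroblast markers to 2433 to 3141 FPKM, against 4625 to 5861 FPKM; their part in these changes was not tested. The 12 day control libraries of this comparison are the same ones that were set against QpE.

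Several chains are neighbours in the genome (GRCm38, from the deposited transcript coordinates). Col3a1 (chr1:45311538-45349706, plus strand) and Col5a2 (chr1:45374321-45503282, minus strand) are 24614 bases apart, and both fell with QpE at 12 days. Col4a1 (chr8:11198423-11312826, minus strand) and Col4a2 (chr8:11312805-11449287, plus strand) start head to head, with an overlap of 22 bases, and neither was called with QpE, while both changed in the same direction over time in controls. Col6a2 (chr10:76595762-76623630) and Col6a1 (chr10:76708792-76726168), both on the minus strand, are 85161 bases apart, and both fell in controls at 24 h, against 6 h. Col4a5 starts head to head with Col4a6 on chromosome X, with 1308 bases between them, yet Col4a6 averaged at most 0.0141 FPKM in any group.

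The genes that process and bind collagens were read from lists set for this report. Of 31 tested genes for collagen processing, which modify, fold, trim and cross-link the chains, 14 fell with QpE at 12 days and 0 rose, beside 7.17% and 5.06% of all genes tested, with a median log2 difference of -0.39, beside -0.002 over all genes. Lox, the lysyl oxidase that starts cross-linking, averaged 51.7 ± 21.5 FPKM in QpE cultures and 158 ± 7.23 FPKM in control cultures (SD, n = 5 each), a log2 difference of -1.72 ± 0.29 (SE; limma adjusted p = 0.0117). Adamts2, the proteinase that trims the amino end of procollagens I to III, averaged 11.5 ± 5.36 FPKM in QpE cultures and 34.8 ± 1.51 FPKM in control cultures (SD, n = 5 each), a log2 difference of -1.67 ± 0.33 (SE; limma adjusted p = 0.0155). P4ha3, a subunit of a prolyl 4-hydroxylase, had a log2 difference of -1.53, and Pcolce, which speeds the trimming of the other end, one of -1.49. At 24 h 0 of these 31 genes were called.

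Of 13 tested genes for proteins that bind fibrils, 8 fell and 0 rose at 12 days, with a median of -1.14; over all genes tested 7.17% were called lower and 5.06% higher, with a median of -0.002. Dcn, the proteoglycan decorin that coats type I fibrils, averaged 277 ± 145 FPKM in QpE cultures and 1106 ± 76.7 FPKM in control cultures (SD, n = 5 each), a log2 difference of -2.43 ± 0.65 (SE; limma adjusted p = 0.0375). Kera (-2.61), Lum (-2.55) and Ogn (-2.14), further small proteoglycans of the fibril surface, had the other leading log2 differences. Of 10 tested basement membrane partners 3 fell and 0 rose, with a median of -0.53, namely Nid2 (-1.36), which links laminin to type IV collagen, Sparc (-1.0), a collagen-binding glycoprotein also counted in the fibril list, and Hspg2 (-0.51), perlecan. Of 12 tested receptors and turnover genes, with a median of -0.98, 2 fell, the gelatinase Mmp9 (-1.56) and the collagen receptor integrin chain Itga11 (-0.84).

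Cell type markers gave values beside these, to be read against 7.17% of all genes tested called lower and 5.06% called higher. Of 9 tested preadipocyte and fibroblast markers 4 fell with QpE at 12 days, Dlk1 (-1.54), Twist1 (-1.44), Pdgfra (-1.40) and S100a4 (-1.37), and of 12 adipocyte markers 2 rose, Pnpla2 (1.54) and Pparg (0.73). Both tested genes of the 6 cartilage and bone markers fell, Runx2 (-1.22) and Sox9 (-0.94). Within controls at 12 days, replicates 3 and 4 had adipocyte sums of 2977 and 2076 FPKM, against 7459 to 8170 FPKM in replicates 1, 2 and 5. QpE replicate 5 had the lowest preadipocyte sum (555 FPKM) of the 10 libraries at 12 days.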

How the data were processed

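RNA from 30 cultures of 3T3-L1 cells was sequenced as poly(A) libraries with 75-base paired reads, per the labels' protocols. The authors deposited FPKM for each transcript, made with HISAT, HISAT2 and StringTie on GRCm38 per the submitters' processing notes; their versions and settings, and whether strand was used, were not given in the sources used here. In 10 deposited columns, treated as a score, 11 values lay just below 0 (lowest -7e-05) and were set to 0. The deposited table had 150146 transcripts, of which 16259 had no gene name; 10567 of these were joined to the only named gene of their locus, and the rest stayed separate. FPKM were summed for each gene.

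Gene sums were taken as log2(FPKM + 1) from the deposited values and tested with limma 3.58.1 (R 4.3.3) with a mean-variance trend, two-sided, only the compared groups entering each fit. Genes with at least 1 FPKM in at least 5 of the 30 libraries were tested, and p-values were adjusted over all 14626. The steps were checked on simulated data in which both groups had the spread of the 12 day controls. The real QpE cultures at 12 days varied more (median SD of a gene 0.281, against 0.215 in controls). That check therefore does not cover groups of unequal spread. Because FPKM are no counts, no count model was used, and folds of low genes are understated by the pseudocount of 1.

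The labels number 5 culture replicates in each group and say no more of their origin, so p-values measure the spread between these cultures. At 12 days, deviations of QpE and control libraries of the same number correlated with r between 0.157 and 0.380. Each was over the bound of 0.1, so the numbers were taken as paired from the data. The highest r with another number was over that bound for each replicate as well (0.146 to 0.324), so the bound does not single out the same number. The main fits did not use this pairing, and p-values come from fits without the block unless it is named. Of the 5 numbers 3 correlated best with their own, replicate 3 narrowly (0.325, against 0.324 with another). Replicates 1 and 2 did so with another (0.212 and 0.233). At 6 h and 24 h and between control times, the lowest r was under 0.1. At 6 h, though, replicates 1 to 4 correlated best with their own number (r between 0.134 and 0.195), and replicate 5 did not (0.0431).

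The members and gene lists were chosen with earlier results of these data known. By rule, values per library were given for the 3 most abundant tested chains of each of the 4 classes and for 8 further called chains by size of difference; Col5a3 was added after its values were seen. Other genes were named from the lists, at most 4 of a list by size among those called at 12 days. Class sums, shares and ratios had no test. Alternatives were a replicate block, 1 fit of all 30 libraries, weights per group, pseudocount 0.1, no filter or one of 5 FPKM, 3 other scalings, other uses of unnamed transcripts, and libraries left out. Promoter windows and their motifs came from RefSeq sequences on GRCm38.p6. Analyses in Python used version 3.11.15 with pandas 2.3.3 and numpy 2.4.6.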

Additional observations from a re-analysis of the deposited data

Results flagged for a closer look

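In 13 of 138 sets of 5 cultures, 1 culture stood far from the other 4 by Dixon's criterion, which chance alone meets in about 1 of 20 independent sets. The sets here are the 23 tested chains in the same 6 groups of libraries, so they are not independent. The count of 13 therefore cannot be set against that rate, and the rate over all genes is not given here. QpE replicate 5 at 12 days was such a culture for 5 chains: Col1a1 had 87.1 FPKM (301 to 462 in the other 4), Col3a1 179 FPKM (835 to 1138), Col5a2 56.6 FPKM (127 to 153), Col23a1 1.55 FPKM (13.0 to 15.5) and Col18a1 23.7 FPKM (38.0 to 45.6). Without that culture 9 chains were called lower at 12 days, against 10 with it, and Col27a1 was the one lost. Over all genes, 859 were called lower without that culture, against 1049 with it.

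Control replicate 4 at 24 h was lowest for all 3 tested type VI chains, with 543 FPKM of Col6a1 (609 to 619 in the other 4), 355 FPKM of Col6a2 (395 to 406) and 277 FPKM of Col6a3 (345 to 373). At 12 days control replicate 1 had 936 FPKM of Col1a1, below 1054 FPKM or more in the others, and control replicate 5 had 452 FPKM of Col6a2 (330.0 to 357 in the others). QpE replicate 5 at 24 h had 58.4 FPKM of Col12a1 (44.3 to 47.7 in the others). At 6 h, QpE replicate 4 had 323 FPKM of Col4a2 (378 to 403 in the others), and control replicate 5 had 50.0 FPKM of Col18a1 (66.4 to 71.0 in the others). The part of RNA quality or culture in these values was not tested.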

How the results depend on the processing

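At 12 days the 10 chains called lower and the 1 called higher became 6 and 0 without a filter, 3 and 0 with each gene's most abundant transcript, 4 and 0 with named transcripts, and 0 and 0 with replicates 1, 2 and 5; replicates 3 and 4 alone gave 0 higher. Leaving out 1 library gave 5 to 9 lower and 0 to 1 higher. Calls over all genes were fewer as well, beside 1049 lower of 14626 in the main fit. They were 591 lower of 31990 genes without a filter, 284 of 14276 with the most abundant transcript and 493 of 18043 with named transcripts. Replicates 1, 2 and 5 gave 50 lower of all genes, replicates 3 and 4 gave 604, and leaving out 1 library gave 473 to 1030. The cause of these losses was not tested. With the replicate block 10 chains were lower and 1 higher at 12 days, as without it. Against the effect at 24 h, 0 chains were called lower, but 1 with the replicate block, 5 in 1 fit of all 30 libraries, 4 with weights per group, 2 with the filter of 5 FPKM, and 0 to 4 with 1 library left out. Choices made after seeing the data gave 7 (all 30 libraries with the block) and 6 (without QpE replicate 5, with the block). Counts over all genes against the effect at 24 h are not given here for these alternatives.

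For controls at 24 h against 6 h, the 3 called higher became 5 with the replicate block, though the numbers did not pair there, and 1 with the most abundant transcript, with named transcripts or with replicates 1, 2 and 5. The 6 called lower became 1 with replicates 1, 2 and 5 and 2 with replicates 3 and 4. For controls at 12 days against 24 h, replicates 3 and 4 gave 3 higher and 3 lower, and the most abundant and the named transcripts each gave 2 lower. Over all genes, named transcripts called 1014 higher at 24 h and 2230 lower at 12 days, of 18043 tested. The main fits called 1531 and 3056 of 14626. Counts over all genes in the other fits of this paragraph are not given here.

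Some directions changed. At 12 days the log2 difference of Col6a1 was 0.028 and that of Col6a2 0.12 with replicates 3 and 4, that of Col6a2 0.0649 without QpE replicate 5 and with the block, that of Col6a3 1.44 with named transcripts and between -0.22 and 0.0739 (without QpE replicate 5) with 1 library left out, and that of Col28a1 0.0017 with the most abundant transcript. With named transcripts Col4a5 had -0.95 in controls at 24 h against 6 h and 0.54 at 12 days against 24 h, where Col28a1 had 0.25. With the most abundant transcript the median was -0.41 for basement membrane and -0.85 for beaded chains. The QpE and control ratios of Col6a1 to Col6a2 were 26.6 and 3.73 with the most abundant transcript, and the QpE ratio was 3.01 with named ones. Those of Col6a3 to Col6a1 were 0.166 and 0.196 with the most abundant transcript, and 0.218 and 0.0447 with named ones. In controls Col5a1 to Col5a2 was 0.378 with the most abundant and 0.375 with named transcripts, Col1a1 to Col1a2 was 0.441 with the locus joined, and fibrillar chains took 68.8%, 67.8% and 71.8% of collagen FPKM with the most abundant, the named and the joined transcripts. The deposited FPKM give no estimate of their counting error, so no interval for it was computed.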
